A study of Mus musculus with 3 samples.

Results

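The cells described here are stem and progenitor-like cells found in the liver of mice carrying a 4T1 mammary tumour at day 21. They were chosen by their own transcripts from the day 21 library, which holds liver non-parenchymal cells profiled by droplet single-cell RNA sequencing. Barcodes entered with 200 or more genes and no more than 20% mitochondrial UMIs (unique molecular identifiers, one per captured transcript). A kept cell was a member when it held at least 1 UMI of Cd34 and at least 2 UMIs of Myb and Cdk6 together. It also had to hold under 0.3% of its UMIs from the primary granule genes Elane, Mpo and Prtn3, under 2% from S100a8 and S100a9, and no UMI of Stab2, Clec4g, Dcn, Cd79a or Cd3e. The rule found 181 members among 10670 kept day 21 cells, and the series holds 20913 kept cells in all.

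The series asks how a tumour outside the liver affects the liver. Female BALB/c mice received PBS or cells of 4T1, a mouse mammary carcinoma line, into the mammary site at 8 weeks of age. Livers were perfused and dissociated, and one library was made for each group: PBS control (mice aged 8 weeks), 4T1 day 4 (8 weeks) and 4T1 day 21 (11 weeks). The labels do not say how many mice went into each library. With 1 library per group no test between groups is possible, and tumour growth, age and library cannot be told apart. Intervals below are 95% intervals that cover counting error only.

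Blood stem cells normally live in the bone marrow, where they renew themselves and give rise to progenitors that become restricted step by step to myeloid, lymphoid, erythroid or megakaryocytic fates. The adult liver holds few of them, although the fetal liver is a blood-forming organ and blood formation outside the marrow can resume there under stress. Cd34 is a surface glycoprotein of progenitors and endothelium, Myb a transcription factor required for definitive blood formation, and Cdk6 a cyclin-dependent kinase that is high in progenitors.

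In the PBS control library 4 of 4734 kept cells met the rule (0.0845%, exact Clopper-Pearson interval 0.0230 to 0.216). At day 4 it was 6 of 5509 (0.109%, 0.0400 to 0.237), and at day 21 it was 181 of 10670 (1.70%, 1.46 to 1.96). The day 21 share was 17.9 times the control share (7.03 to 45.6) and 14.4 times the day 4 share (6.60 to 31.5). These are shares of captured cells and not numbers per liver. The few cells that met the rule in the other libraries had some values far from those of the members and others close to them. The summed level of 8 dendritic cell genes was 331 CPM (the UMIs of a gene scaled to a common total) in the 4 control cells, 907 CPM in the 6 day 4 cells and 65.4 CPM in the 181 members. Irf8, a transcription factor of monocyte and dendritic progenitors, had 1286 CPM in control, 1070 CPM at day 4 and 359 CPM at day 21. Flt3 had 147 CPM in control, 223 CPM at day 4 and 145 CPM at day 21, and the list of blood progenitor regulators summed to 1715 CPM in control, 3047 CPM at day 4 and 3369 CPM at day 21. With 4 and 6 cells in the earlier libraries, these values carry wide counting error. Possible doublets made up 0 of the 4 control cells, 3 of the 6 day 4 cells and 2 of the 181 members.

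**Figure D1:**
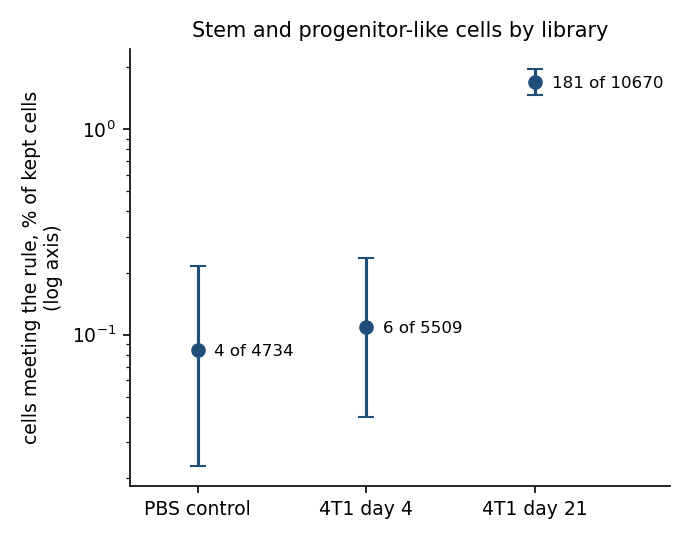
Cells that met the membership rule as a percentage of kept cells in each library, on a log axis; points are single libraries and bars are exact Clopper-Pearson 95% intervals. The day 21 point lies at 1.70%, above the upper bounds of the control (0.216%) and day 4 (0.237%) intervals.

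The members were deeper than the cells around them, with a median of 8300 UMIs (1254 to 29401) and 2879 genes, against 3089 UMIs and 1095 genes in the 10489 other kept cells of the library. Mitochondrial UMIs took a median of 6.72% in the members and 7.22% in the other cells. Where depth could set a share of cells, each cell was also thinned to 2000 UMIs, which left out 2 members and 3547 other cells. The rule asks for UMIs of Cd34, Myb and Cdk6 and so favours deeper cells. After thinning, 0.983% of the day 21 cells met it. Of the barcodes at day 21, 22 also occurred in control and 32 at day 4. Only 2 of these belonged to members. The 3 libraries held 27191082, 34833820 and 51913215 UMIs in control, day 4 and day 21.

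The genes that chose the members ranged widely among them. Cd34 had 1 to 13 UMIs per member (median 3), and 31 members held a single one. Myb had 0 to 12 UMIs (median 2) and Cdk6 had 0 to 26 (median 5). The primary granule genes took 0 to 0.297% of a member's UMIs (median 0.0829%). Going through the rule in order, 954 day 21 cells held Cd34, 564 of them also passed Myb and Cdk6, and 246 of those lay under the granule limit. The remaining limits left 181. The granule limit removed more cells than any other limit after the Myb and Cdk6 step.

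Kit, the stem cell factor receptor and the defining progenitor marker that the rule did not use, was detected in 82 of 181 members (45.3%, 37.9 to 52.9). Its level was 88.5 CPM in the members and 35.6 CPM in the other cells, and 19.1% of 507 promyelocyte-like cells held it at 22.8 CPM. With Cd34, Myb and Cdk6 also required, 42.4% of 99 cells with 0.3 to 1% granule gene UMIs held Kit (52.5 CPM). The same was true of 36.9% of 103 cells at 1 to 3% (35.6 CPM). These cells were deeper than the members, with medians of 13222 and 15925 UMIs against 8300. Endothelial cells, which are known to express Kit, held more of it than the members, with 225 CPM and 37.2% of 1549 cells. After thinning, Kit was found in 13.4% of the members, 33.4% of endothelial cells, 2.86% of mature B cells, 0.559% of Kupffer cells and 0% of T cells. The members' share therefore lay above that in cell types that should lack the gene, although most members showed no Kit UMI at this depth. Flt3, the receptor of early lymphoid and myeloid progenitors, separated more clearly. It was detected in 98 members (54.1%, 46.6 to 61.6) and in 2.53% of the other cells, and after thinning in 20.7% of the members and 1.35% of the other cells.

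Across all genes, 6078 had a mean level of at least 20 CPM over the members and the other cells. Of these, 1324 (21.8%) were higher by 2-fold or more in the members and 625 (10.3%) were lower by as much, with a median log2 ratio of 0.48. The largest marked set among the 10489 other cells was 4257 neutrophils, with 2% or more of their UMIs from S100a8 and S100a9. Leaving out all of the other cells at or above that limit gave 287 higher and 841 lower genes. Counts of listed genes are read against the shares of 21.8% and 10.3%.

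Markers of most liver cell types were low in the members. The rule required no UMI of Stab2, Clec4g, Dcn, Cd79a or Cd3e and limited S100a8 and S100a9. Low endothelial, stellate, B cell, T cell and neutrophil lists were therefore not independent of it. All 12 late neutrophil genes were at least 2-fold lower, with a summed level of 290.3 CPM in the members and 36957 CPM in the other cells. The 15 endothelial genes summed to 201 CPM in the members and 2457 CPM in the other cells, and Lyve1 and Vwf had no UMI in the members. Kupffer cell genes summed to 95.9 CPM in the members and 1357 CPM in the other cells, and hepatocyte genes to 142 CPM in the members and 930 CPM in the other cells. Stellate cell genes summed to 43.6 CPM in the members and 449 CPM in the other cells, with Lrat, Col1a1, Col1a2, Col3a1 and Colec11 at 0. The 10 genes of bile duct or tumour epithelium were not lower, with 51.1 CPM in the members and 33.9 CPM in the other cells. Among them, Krt19, Krt7, Sox9, Krt14, Krt6a and Cldn4 had no UMI in the members. The keratin gene Krt18 had 47.3 CPM in the members and 13.3 CPM in the other cells. T and NK cell genes summed to 43.0 CPM in the members and 237 CPM in the other cells, and mature B cell genes to 48.0 CPM in the members and 152 CPM in the other cells. Haemoglobin genes summed to 287 CPM in the members and 1838 CPM in the other cells. Some of these sums lay largely in single members. A single member held 272 of the 461 haemoglobin UMIs, another 89 of the 228 hepatocyte UMIs and another 64 of the 154 Kupffer cell UMIs. The rule itself required Cd34, Myb and Cdk6, so of the 4 fixed markers of the label Kit alone was independent of it, and Kit was detected in 45.3% of the members.

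Among the 20 named genes with the highest ratio, progenitor regulators and receptors stood beside genes better known from other tissues. Vldlr, the very low density lipoprotein receptor, had 33.0 CPM in the members and 1.15 CPM in the other cells. Slc22a3, an organic cation transporter, had 47.4 CPM in the members and 1.95 CPM in the other cells. Nrgn, a calmodulin-binding protein first known from neurons, had 129 CPM in the members and 8.50 CPM in the other cells. Muc13, a membrane mucin, had 94.7 CPM in the members and 8.13 CPM in the other cells.

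Dntt, Angpt1, Hlf and Flt3 were among the 6 named genes with the highest ratios. Dntt (ENSMUSG00000025014, chr19:41029275-41059525, + strand, GRCm38), the template-free DNA polymerase of lymphoid progenitors, had 371 UMIs in 52 members. That made 231 CPM in the members and 8.29 CPM in the other cells (log2 ratio 4.80, 4.59 to 5.01). Angpt1 (ENSMUSG00000022309, chr15:42424723-42676977, - strand), which encodes the ligand angiopoietin of the receptor Tek, had 87.2 CPM in the members and 3.55 CPM in the other cells (4.62, 4.29 to 4.95). Hlf (ENSMUSG00000003949, chr11:90336536-90390895, - strand), a transcription factor of stem cells, had 114 UMIs in 59 members. Its level was 71.0 CPM in the members and 3.20 CPM in the other cells (4.47, 4.11 to 4.83). No cell set defined by marker genes exceeded 5.91 CPM. The Cd34-positive cells just outside the granule limit, at 0.3 to 1%, had 12.7 CPM. Flt3 (ENSMUSG00000042817, chr5:147330741-147400489, - strand) had 145 CPM in the members and 9.40 CPM in the other cells (3.95, 3.72 to 4.18). Kit lies on the same chromosome (ENSMUSG00000005672, chr5:75574916-75656722, + strand) and had a log2 ratio of 1.32 (1.06 to 1.56). Meis1 (ENSMUSG00000020160, chr11:18879817-19018985, - strand), a homeobox partner of the Hoxa proteins, had 145 CPM in the members and 12.3 CPM in the other cells (3.57, 3.34 to 3.78).

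**Figure D2:**
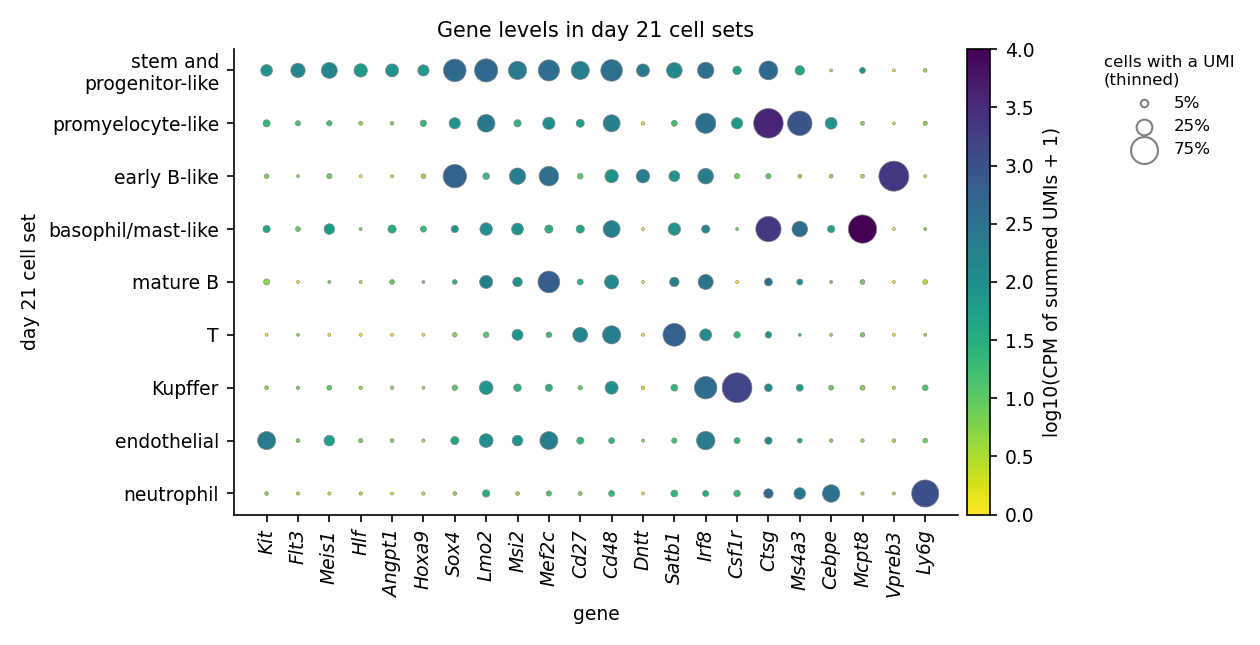
Levels of 22 genes in the members and 8 other cell sets of the day 21 library; colour is log10 of summed CPM plus 1, and dot area is the share of cells with a UMI after thinning to 2000 UMIs. The members are in the top row, with Flt3, Meis1, Hlf and Angpt1 above other sets, while Kit is higher in endothelial cells (225 CPM) than in members (88.5 CPM).

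Regulators of blood progenitors were high as a group against the pooled other cells. Their summed level was 3369 CPM in the members and 1086 CPM in the other cells. Some cell sets came closer, with 2539 CPM in basophil or mast-like, 2175 CPM in early B-like and 2060 CPM in mature B cells. The remaining sets had 736 to 1340 CPM. Of 23 listed genes 19 reached the level minimum, 16 were at least 2-fold higher in the members than in the other cells and none was 2-fold lower, with a median log2 ratio of 2.10. Without the neutrophil-like cells in the comparison the number was 14. Lmo2, an adaptor of stem cell transcription complexes, had 442 CPM in the members and 97.0 CPM in the other cells, and was detected in 156 members. Sox4, a progenitor transcription factor of several lineages, had 439 CPM in the members and 48.7 CPM in the other cells, and was detected in 163 members. Hoxa9 and Hoxa7 encode homeobox factors of early progenitors. Hoxa9 had 66.7 CPM in the members and 5.93 CPM in the other cells, and Hoxa7 had 61.7 CPM in the members and 6.87 CPM in the other cells. Msi2, an RNA-binding protein of stem cells, had 231 CPM in the members and 32.1 CPM in the other cells, and Myc, a driver of cell growth, had 226 CPM in the members and 39.4 CPM in the other cells. Mef2c, a transcription factor of lymphoid and myeloid progenitors, had 376 CPM in the members but 661 CPM in mature B cells. The exceptions on the list included Spi1, which encodes the myeloid factor PU.1, with 179 CPM in the members and 333 CPM in the other cells (-0.89, -1.06 to -0.72).

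Genes tied to the most immature stem cells were detected unevenly. Only 9 of 22 listed genes reached the level minimum, of which 4 were at least 2-fold higher in the members (Hlf, Meis1, Angpt1 and Hoxa9) and 3 were lower (Esam, Robo4 and Tek, all known from endothelium), with a median log2 ratio of 0.07. Nkx2-3, a homeobox gene of blood stem cells, stayed below that minimum but had 43 UMIs in 28 members, which was 26.8 CPM in the members and 0.431 CPM in the other cells. Mecom, a transcription factor of long-term stem cells, had 29 UMIs in 25 members. Procr had 19 UMIs and Slamf1 had 7, both encoding surface markers used to sort stem cells. Hoxb5 and Prdm16 had none. Ly6a, which encodes the sorting marker Sca-1 and is known to be low on stem cells of the BALB/c strain, had 6 UMIs in 6 members, or 3.74 CPM in the members and 14.7 CPM in the other cells. At this depth the members therefore carried Hlf, Meis1 and Angpt1, while other genes of long-term stem cells gave few or no UMIs.

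A list of progenitor surface genes and other progenitor-associated genes followed the regulators. It also holds Nrgn, Angpt1 and Ctla2a, which do not encode surface receptors, and was fixed with earlier results of these data known. Of 20 listed genes 19 reached the level minimum, 11 were at least 2-fold higher in the members than in the other cells and 1 was lower, with a median of 1.89. Cd27, a co-stimulatory receptor on early progenitors, had 198 CPM in the members and 23.6 CPM in the other cells. Cd48, which marks progenitors past the long-term stem cell stage, had 313 CPM in the members and 84.3 CPM in the other cells and was detected in 149 members. Adgrg1, an adhesion receptor of blood stem cells, had 164.5 CPM in the members and 19.8 CPM in the other cells. Ctla2a, a cysteine protease inhibitor, had 521 CPM in the members, 59.7 CPM in the other cells and 321 CPM in endothelial cells. The lower gene was Ptprc, the leukocyte antigen CD45, with 181 CPM in the members and 368 CPM in the other cells.

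Receptors for blood growth factors were mostly not higher. Of 22 counted, Kit and Flt3 were the 2 that were at least 2-fold higher in the members and 9 were lower, with a median of -0.34. Csf3r, the G-CSF receptor, had 26.8 CPM in the members and 134 CPM in the other cells, and Csf1r, the M-CSF receptor, had 49.2 CPM in the members and 112 CPM in the other cells. The shared signalling subunit Csf2rb had 142 CPM in the members and 132 CPM in the other cells. Among genes of homing and adhesion, 2 of 21 counted were at least 2-fold higher and 9 were lower, with a median of -0.42. The higher genes encode integrin chains, Itga4 with 163 CPM in the members and 77.8 CPM in the other cells, and Itga6 with 45.5 CPM in the members and 15.6 CPM in the other cells. Cxcr4, the receptor that holds progenitors in the marrow, had 159 CPM in the members and 89.7 CPM in the other cells (0.83, 0.64 to 1.01). Vcam1, the adhesion ligand of the Itga4 integrin, had no UMI in the members and was at least 30.4-fold lower than in the other cells, taking 3 UMIs over the members as the floor.

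Genes of committed myeloid lineages were mostly lower in the members than in the other cells. Of 11 counted granulocyte genes 8 were at least 2-fold lower and none higher (median -2.31), and of 13 counted monocyte and dendritic genes 7 were lower and none higher (median -1.01). The named genes with the lowest ratios were neutrophil genes, and the rule had limited S100a8 and S100a9 in the members. Lcn2, an iron-binding granule protein, had 34.9 CPM in the members and 5571 CPM in the other cells, and Ngp, a secondary granule protein, had 76.6 CPM in the members and 10791 CPM in the other cells. Fpr2, a formyl peptide receptor, had no UMI in the members and was at least 51.7-fold lower. Without the neutrophil-like cells in the comparison, Ngp had a log2 ratio of -0.42 and Lcn2 of -1.13. Few transcripts were found of the erythroid factors Gata1 (9 UMIs) and Klf1 (1 UMI), of the erythropoietin receptor Epor (3 UMIs) or of the platelet chemokine Pf4 (10 UMIs in 2 members).

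Lymphoid genes were higher in some cases and lower in others. Satb1, a chromatin organiser of early lymphoid progenitors, had 142 CPM in the members and 47.4 CPM in the other cells. Ighm, the immunoglobulin heavy chain gene that is transcribed early in lymphoid progenitors, had 176 CPM in the members and 351 CPM in the other cells. Pax5, Vpreb3 and Igll1, which mark B lineage commitment, had no UMI in the members, and Rag1 had 3. The rule left out cells with a Cd79a UMI, so the absence of B lineage transcripts was not independent of it. Of 8 counted lymphoid genes 2 were at least 2-fold higher in the members, Dntt and Satb1, and 2 were lower, Vpreb3 and the B cell factor Ebf1; the share that was higher is near the 21.8% of all genes tested. Of 6 counted MHC class II genes 4 were at least 2-fold lower in the members and none was higher (median -2.33), and the invariant chain gene Cd74 had 51.7 CPM in the members and 460 CPM in the other cells. The dendritic cell genes summed to 65.4 CPM in the members and 63.8 CPM in the other cells.

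The members carried transcripts of DNA replication. Of 25 S phase genes 23 were at least 2-fold higher in the members than in the other cells (median 1.52), or 14 without the neutrophil-like cells. Mcm6, a subunit of the replicative helicase, had 247 CPM in the members and 58.0 CPM in the other cells, and Cdk4, a kinase of G1 progression, had 434 CPM in the members and 140 CPM in the other cells. Of 25 G2 and M phase genes 5 were at least 2-fold higher (median 0.73), a share near the 21.8% of all genes tested. The number was 18 with each cell weighted equally and 0 without the neutrophil-like cells. Top2a, the topoisomerase that untangles chromosomes, had 477 CPM in the members and 189 CPM in the other cells. Of 19 counted genes of ribosome biogenesis 18 were at least 2-fold higher (median 1.57), or 6 without the neutrophil-like cells. Ncl, encoding nucleolin, had 1074 CPM in the members and 328 CPM in the other cells, and Npm1, encoding nucleophosmin, was detected in every member.

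**Figure D3:**
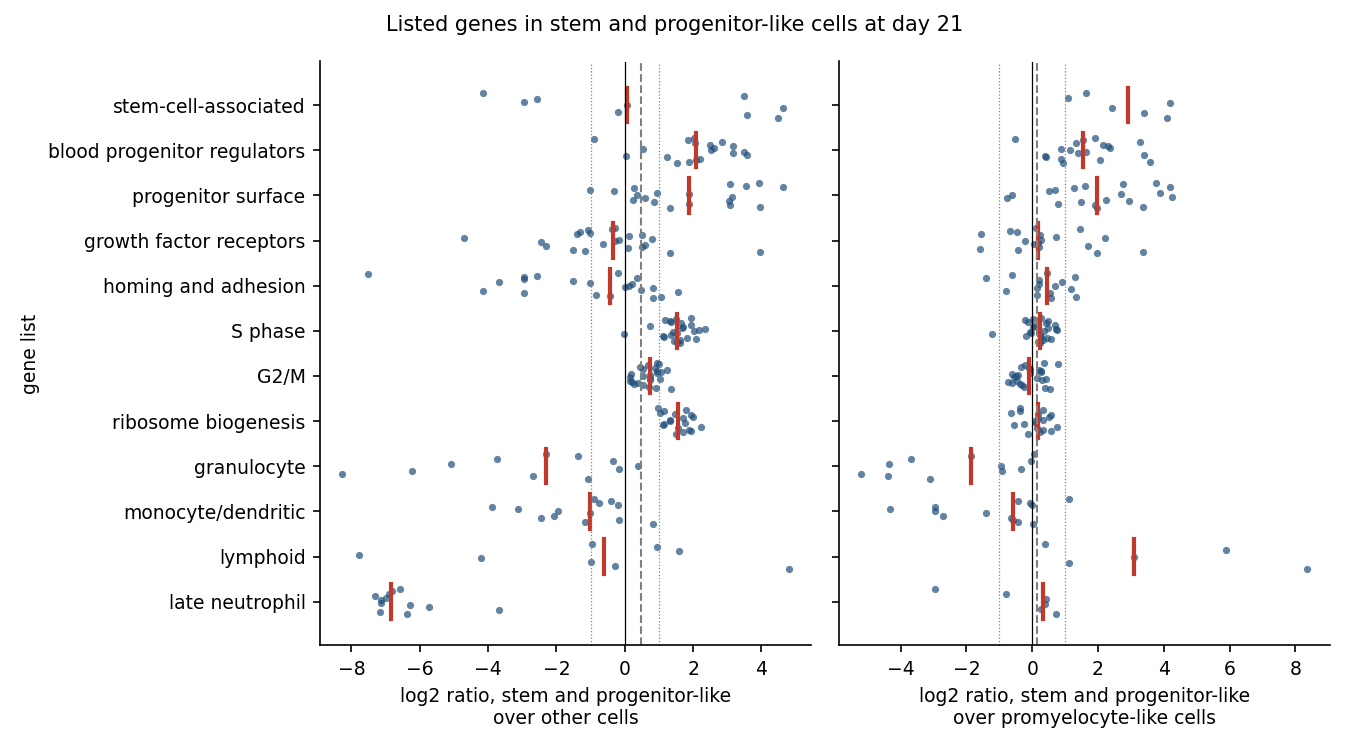
Log2 ratios of listed genes in the members over other cells (left) and over promyelocyte-like cells (right); each point is a gene that reached the level minimum, red bars are list medians, the dashed line is the median of all such genes and dotted lines are 2-fold. A count of 0.5 was added to each sum, and Fcnb, Vcam1 and Vpreb3 had no UMI in the members. The regulators have a median of 2.10 over other cells and 1.53 over promyelocyte-like cells, while the S phase median is 1.52 over other cells and 0.24 over promyelocyte-like cells.

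Across the granule limit of the rule lay 507 promyelocyte-like cells, defined by 0.3% or more of their UMIs from Elane, Mpo and Prtn3. They kept the limit on S100a8 and S100a9 and held no UMI of Stab2, Clec4g, Dcn, Cd79a or Cd3e. Cd34, Myb and Cdk6 were not required of them, so they differ from the members in that selection too. Of 5807 genes at the level minimum, 524 (9.02%) were higher by 2-fold or more in the members and 232 (4.00%) were lower, with a median of 0.15. After thinning, the numbers were 827 and 349. The replication and ribosome lists had medians near 0 here, at 0.24 for S phase, -0.09 for G2 and M phase and 0.16 for ribosome biogenesis. None of 25 S phase genes was 2-fold higher and 1 was lower (Rrm2, a ribonucleotide reductase subunit, with 144 CPM in the members and 339 CPM in promyelocyte-like cells), and none of 19 ribosome biogenesis genes or 25 G2 and M phase genes was 2-fold apart. Against promyelocyte-like cells, 6 of 6 counted stem-associated genes and 13 of 19 counted regulators were at least 2-fold higher in the members. Cells outside the granule limit that did meet the Cd34, Myb and Cdk6 criteria are described below. Genes of the list of progenitor surface and other progenitor-associated genes were also higher, in 14 of 19. The summed level of that list was nonetheless close, with 5535 CPM in the members and 5511 CPM in promyelocyte-like cells. The granulocyte list ran the other way, with none of 11 higher and 6 lower (median -1.87). The sets were split on the granule genes Elane, Mpo and Prtn3, so this direction was not independent of their definition.

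Single genes marked both sides of that comparison. Dntt had 231 CPM in the members and 0.623 CPM in promyelocyte-like cells (log2 ratio 8.37, 7.17 to 10.4). Rgs1, a regulator of G protein signalling, had 101 CPM in the members and 3.27 CPM in promyelocyte-like cells. Car2, a carbonic anhydrase of erythroid and early progenitor cells, had 69.2 CPM in the members and 4.83 CPM in promyelocyte-like cells. On the lower side, Ms4a3, a membrane protein of granulocyte and monocyte progenitors, had 44.2 CPM in the members and 926 CPM in promyelocyte-like cells (-4.38, -4.75 to -4.05). Cebpe, the transcription factor of secondary granule formation, had 1.87 CPM in the members and 80.4 CPM in promyelocyte-like cells. F13a1, a coagulation factor subunit of monocytes, had 14.3 CPM in the members and 294 CPM in promyelocyte-like cells. Fcnb, a ficolin of granulocyte precursors, had no UMI in the members and was at least 15.3-fold lower.

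Genes of G1 control and cell cycle arrest differed from the replication genes. Of 14 counted, 7 were at least 2-fold higher in the members than in promyelocyte-like cells and 1 was lower. Ccnd2, a G1 cyclin, had 211 CPM in the members and 42.9 CPM in promyelocyte-like cells, and Cdkn1a, the kinase inhibitor p21, had 125 CPM in the members and 51.4 CPM in promyelocyte-like cells. Immediate early genes, which can also be induced by tissue dissociation, were at least 2-fold higher for 8 of 15 counted and lower for 1, with a summed level of 2088 CPM in the members and 1100 CPM in promyelocyte-like cells; the part of dissociation in these differences was not tested. Per cell and after thinning, 5 or more S phase UMIs were found in 58.7% of the members and 72.2% of promyelocyte-like cells. The same limit for G2 and M phase UMIs was met by 30.7% of the members and 59.6% of promyelocyte-like cells, against 59.1% and 92.3% before thinning.

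Cells of the lymphoid and basophil or mast lineages in the same library were compared in the same way. Against 328 early B-like cells, 523 of 6145 genes (8.51%) were 2-fold or more higher in the members and 485 (7.89%) lower. Of 15 counted lymphoid genes 12 were at least 2-fold lower in the members, while Dntt had 231 CPM in the members and 198 CPM in early B-like cells. The lymphoid list includes Vpreb1, Vpreb3 and Igll1, which chose the early B-like cells, so the direction of these genes was set in advance. Sox4 had 439 CPM in the members and 565 CPM in early B-like cells. Against 83 basophil or mast-like cells, 651 of 6029 genes (10.8%) were 2-fold or more higher in the members and 573 (9.50%) lower. All 13 genes of the basophil and mast list were at least 2-fold lower in the members. Ms4a2, Cpa3 and Mcpt8 are among them and chose the basophil or mast-like cells, so their direction was set in advance. Gata2, a transcription factor of stem and mast cells, had 53.0 CPM in the members and 725 CPM in those cells.

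The granule limit of the rule cut through a graded series of Cd34-positive cells. With the other criteria kept, 10 members held no UMI of Elane, Mpo or Prtn3, 93 held up to 0.1% and 78 held 0.1 to 0.3%, while 99 cells just outside held 0.3 to 1%, 103 held 1 to 3% and 6 held 3 to 10%. Across these bins in that order, Dntt had 488, 401, 31.8, 2.99, 0 and 0 CPM, and Flt3 had 236, 195, 84.9, 59.2, 5.91 and 0 CPM. Hlf had 0, 78.7, 69.0, 12.7, 2.37 and 22.8 CPM, and Kit had 47.2, 86.3, 94.2, 52.5, 35.6 and 0 CPM. Ctsg, a granule protease that the rule did not use, had 0, 220, 706, 1733, 3779 and 8986 CPM, and Ms4a3 had 15.7, 30.5, 61.0, 320, 1059 and 2387 CPM. The summed stem-associated list had 661, 1589, 2478, 1667, 1142 and 263 CPM. Its level just outside the limit thus lay within the range of the member bins. The summed regulator list had 3528, 3489, 3229, 2192, 1473 and 959 CPM. The first and last bins hold 10 and 6 cells and carry wide intervals. Dntt was thus lower on the higher-granule side of 0.1%, within the members, and lower again on the outer side of the limit at 0.3%. Meis1 had 147 CPM and 149 CPM in the 2 bins on either side of 0.1% and 38.2 CPM just outside the limit.

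**Figure D4:**
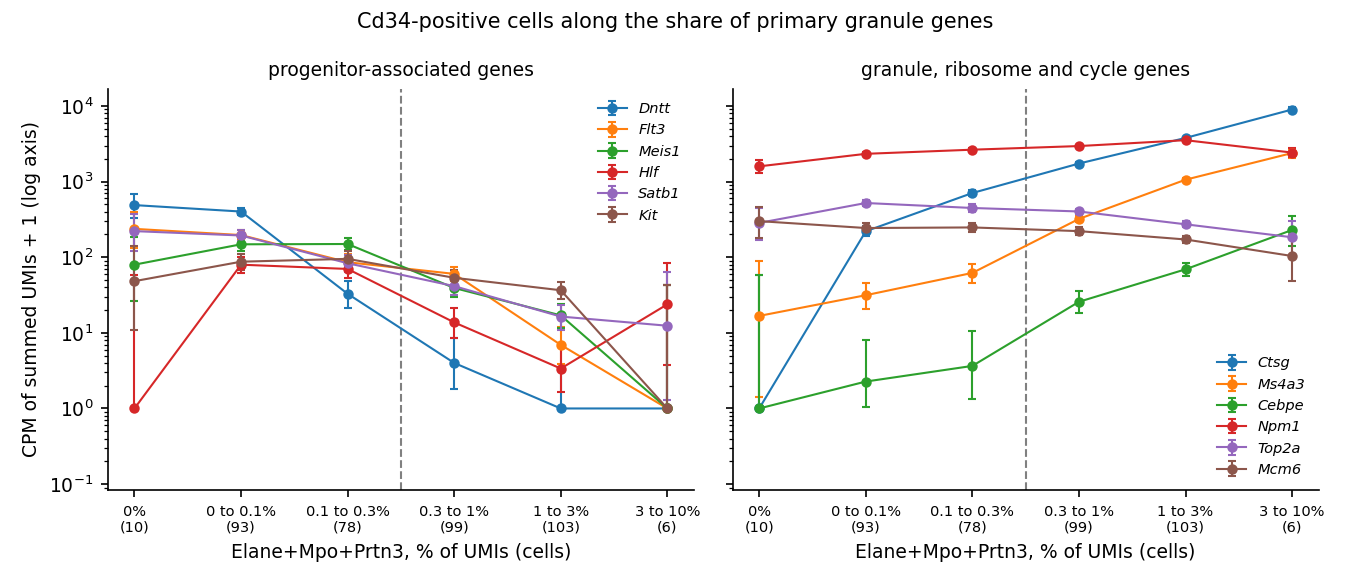
Levels of 12 genes in day 21 Cd34-positive cells binned by the share of UMIs from Elane, Mpo and Prtn3 (x axis, number of cells in brackets), as summed CPM plus 1 on a log axis with exact Poisson 95% intervals; cells left of the dashed line are members. Dntt had 401 CPM in the bin up to 0.1% and 31.8 CPM from 0.1 to 0.3%, and Ctsg had 220 CPM and 706 CPM in the same bins.

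Cells on either side of the Myb and Cdk6 limit were compared in the same way. The 18 members with exactly 2 UMIs of Myb and Cdk6 had 72.6 CPM of Flt3, 43.6 CPM of Hlf, 145 CPM of Dntt and 705 CPM of Irf8. The 29 cells that failed the rule only there, with 1 UMI, had 64.1 CPM of Flt3, 4.27 CPM of Hlf, 0 CPM of Dntt and 492 CPM of Irf8. Members near this limit thus carried more Irf8 than the members as a whole, at 359 CPM. The 31 members with 1 Cd34 UMI had 242 CPM of Flt3 and 22.8 CPM of Hlf, and the 57 cells that failed only for having no Cd34 UMI had 40.0 CPM of Flt3 and 25.7 CPM of Hlf.

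The members were mixed. Of 7 lists of lineage genes, 3 or more had at least 2 UMIs in 140 members (77.3%), and no member lacked all of them. That share followed depth, since after thinning 23 of 179 members (12.8%) met it, 68 held 2 lists, 65 held 1 and 23 held none. Before thinning the granulocyte list was met by 164 members, the monocyte and dendritic list by 172, the lymphoid list by 108, the erythroid list by 61, the megakaryocyte list by 45 and the basophil and mast list by 20. No member met the eosinophil list, which allows up to 2.02% of such cells to hold those UMIs (exact interval) and does not limit cells that express the genes below that depth. Among the genes that varied most between thinned members, Prss34 and Mcpt8, proteases of basophils, were carried mostly by 1 member, which held 305 of 311 Prss34 UMIs. Without it the summed basophil and mast list had a log2 ratio over other cells of -2.20, against -0.35 with it. Ly6d, a marker of B lineage priming, had its 66 UMIs in 9 members, and Irf8 had 576 UMIs in 74 members.

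Grouping members by single lineage genes showed where these transcripts lay. The genes were chosen with their values known, and the groups may share cells. Hlf was detected in 59 members, Dntt with 2 or more UMIs in 37, Csf1r in 44, Fcer1a, Ms4a2 and Cpa3 with 2 or more UMIs together in 10, and none of these held in 47. The Hlf and Dntt groups shared 8 cells and the Hlf and Csf1r groups shared 5. Median depth was 7516 UMIs in the Hlf group, 8685 in the Dntt group and 10155 in the Csf1r group.

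The Hlf group carried the most Meis1 and Kit. Meis1 had 253 CPM in the Hlf group, 129 CPM in the Dntt group and 41.5 CPM in the Csf1r group, and Kit had 141, 61.8 and 28.4 CPM in the same groups. Kit was detected in 39 of the 59 Hlf members (66.1%), against 35.2% of those without Hlf. Irf8 was detected in 6 of the 59 Hlf members (10.2%), against 55.7% of those without Hlf. After thinning, 0 of 32 members with Hlf also held Irf8, as 49 of 179 did in all.

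The Dntt group carried early lymphoid transcripts. Satb1 had 326 CPM in the Dntt group, 116 CPM in the Hlf group and 87.3 CPM in the Csf1r group, and Flt3 had 261, 91.1 and 131 CPM in the same groups. Il12a, a cytokine subunit gene, had 205 CPM in the Dntt group, 45.6 CPM in the Hlf group and 28.4 CPM in the Csf1r group. Il7r, the interleukin 7 receptor of lymphoid progenitors, had 81.5 CPM in the Dntt group and no UMI in the Hlf group.

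The Csf1r group held the most Irf8 and Ccr2 of these groups, while its dendritic cell genes summed to 43.7 CPM, against 155 CPM in the Dntt group and 65.4 CPM in all members. Irf8 had 782 CPM in the Csf1r group, 304 CPM in the Dntt group and 16.6 CPM in the Hlf group. Ccr2, the receptor that draws monocytes to inflamed tissue, had 325 CPM in the Csf1r group, 39.3 CPM in the Dntt group and 31.1 CPM in the Hlf group. The 10 members with basophil or mast transcripts held 299 CPM of Gata2 and no UMI of Flt3 or Dntt. Of their 246 UMIs of the granulocyte list, 106 were in 1 member. Transcripts of division were least frequent in the Hlf group. After thinning, 5 or more G2 and M phase UMIs were found in 8 of 59 Hlf members (13.6%), 13 of 37 Dntt members (35.1%) and 22 of 44 Csf1r members (50%), and 5 or more S phase UMIs in 44.1%, 56.8% and 72.7% of the same groups.

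**Figure D5:**
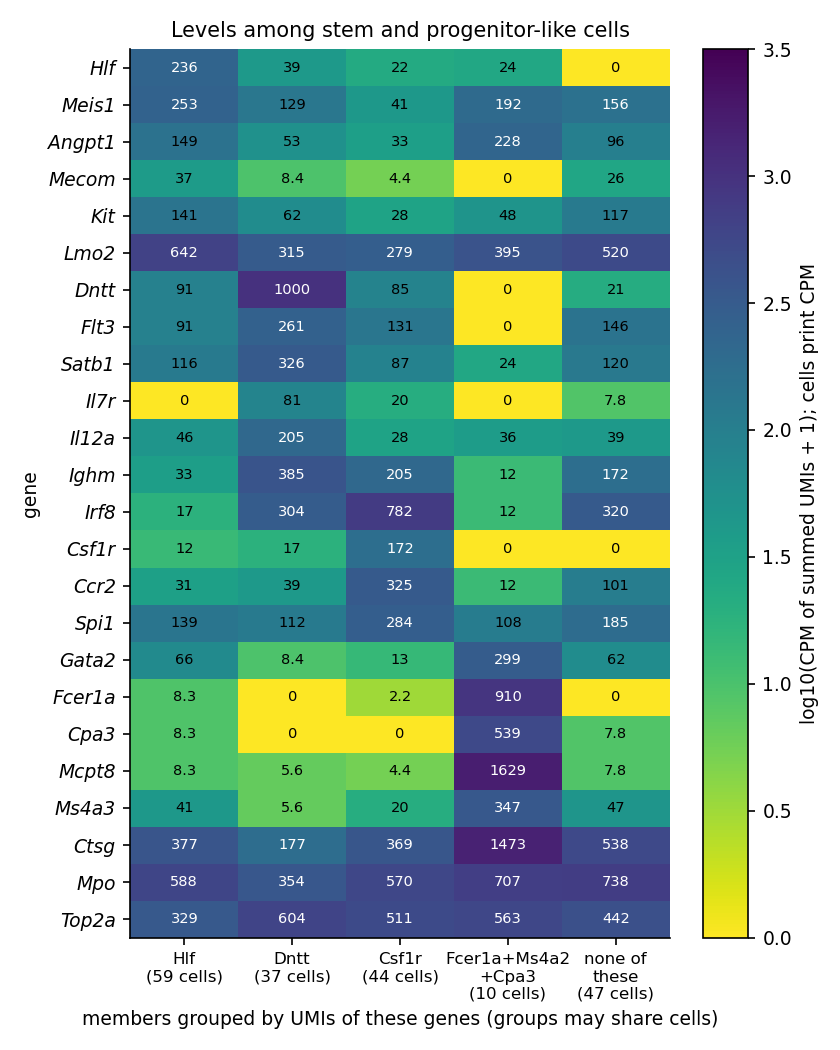
Summed CPM of 24 genes in 5 groups of members defined by UMIs of Hlf, Dntt, Csf1r, of Fcer1a, Ms4a2 and Cpa3 together, or of none of these; numbers are CPM and colour is log10 of CPM plus 1. Irf8 has 782 CPM in the Csf1r group and 16.6 CPM in the Hlf group, and Satb1 has 326 CPM in the Dntt group.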

How the data were processed

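Liver non-parenchymal cells of 3 groups, 1 library each, were profiled with a 10x Genomics 3' assay. The deposited matrices hold raw UMI counts per gene and barcode, written by Cell Ranger 3.1.0 per the file headers, with build mm10 per the submitters' processing notes; the aligner settings and annotation are not given in the sources used here. Gene positions come from the GENCODE annotation of GRCm38, matched by gene ID.

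Counts were summed over a cell set and scaled to CPM. Log2 ratios have 0.5 counts added to each sum and exact conditional binomial intervals; intervals of shares are exact (Clopper-Pearson). The interval of a ratio between 2 shares was taken on the log scale after adding 0.5 to both counts. PCR copies are removed by UMIs, and all intervals cover counting error only. Genes were counted as higher or lower at 2-fold or more, among genes with a mean of at least 20 CPM over both sets. A gene at 0 was bounded by a floor of 3 counts over the set. With 1 library per group no test was made.

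Comparison sets were cut from the same library by UMIs of marker genes: early B-like by 2 or more of Vpreb1, Vpreb3 and Igll1 with Cd79a, basophil or mast-like by 3 or more of Ms4a2, Cpa3 and Mcpt8, endothelial by 3 or more of Stab2 and Clec4g, Kupffer by 3 or more of Clec4f and Cd5l, mature B by Cd79a and Ms4a1, T by 2 or more of Cd3e. Named genes had at least 50 UMIs and were detected in 20% of cells of the higher set, and were the 20 highest and 10 lowest ratios against other cells, the 12 highest and 12 lowest against promyelocyte-like cells, and the 12 most variable among members, besides examples from the lists. The rule's own 13 genes were left out. Doublets were marked with Scrublet in Scanpy 1.11.5: 42 control, 404 day 4 and 673 day 21 cells. At day 4 the automatic threshold marked 6 cells, so the expected rate set it there. Marked cells were kept. The ratios and intervals were checked on simulated counts. The members and gene lists were chosen with earlier results of these data known.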

Additional observations from a re-analysis of the deposited data

How the results depend on the processing

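In all, 13 alternative settings were tried, 12 planned and 1 added after seeing the data (leaving out the member with most Prss34 UMIs). No paired analysis was possible because each group has 1 library and no test was made. The member share of 1.70% was 2.55% with a floor of 500 genes and a ceiling of 10% mitochondrial UMIs, 0.769% with a Kit UMI required, 1.97% with 1 UMI of Myb and Cdk6, 0.965% with granule genes under 0.1%, and 0.983% after thinning to 2000 UMIs. Over these settings and the others run, the ratio of shares ranged from 10.2 to 23.6 over control and from 8.05 to 27.8 over day 4. Thinning gave 13.4% of members with Kit. Genes at least 2-fold higher than in other cells numbered 287 without the neutrophil-like cells, 607 at a minimum of 50 CPM and 2408 at 5 CPM. Lower genes numbered 841, 310 and 1332 in the same settings. Without the neutrophil-like cells 14 S phase, 0 G2 and M phase and 6 ribosome biogenesis genes were higher. The G2 and M phase count was 2 with the stricter cell filter, 9 after thinning and 18 as a mean over cells. Against promyelocyte-like cells thinning gave 827 higher and 349 lower genes, and the lower granule limit gave 1 G2 and M phase gene. The share with 3 or more lineage lists was 12.8% after thinning and 53.6% at 3 UMIs per list. Of the named genes, 457 of the pairs of gene and setting that were at least 2-fold apart remained so on the same side and 5 did not; of the lists, 106 did and 4 did not. Beyond the counting interval of the main value lay 98 pairs for the named genes and 160 for the lists. No value that was at least 2-fold apart changed sign. Where the neutrophil-like cells were left out or the level minimum changed, the counts changed by construction; for the other settings the cause was not tested. Single libraries, the choice of marker cuts and the depth of Kit and of the stem-associated genes limit what can be read.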
